A study of Mus musculus with 17 samples.

Results

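Messages of 10 genes of the elastic fibre, the basement membrane and matrix crosslinking were followed in mouse liver: Eln, Fbn1, Mfap4, Fbln5, Lox, Loxl2, Lamc1, Nid1, Sparc and Adamts2. They were chosen by symbol as non-collagen matrix genes named as targets of the microRNA miR-29, and all 10 were found among the 48440 gene rows of the deposited table. All 10 passed the filter on low values (a mean of at least 10 over all libraries), as did 14588 genes in the whole table. There were 6 libraries from livers of 2-month-old miR-29 transgenic mice (TG), 5 from 2-year-old and 6 from 2-month-old wild-type mice of B6, a common inbred black strain. By its title, the study concerns miR-29 and ageing. The comparisons therefore ask how these genes differ with the transgene, with age, and between the young transgenic and the old wild-type liver.

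The construct and promoter of the transgene, and the strain of the transgenic mice, are not given in the sources used here. All 4 precursor genes of miR-29 (Mir29a, Mir29c, Mir29b-1 and Mir29b-2) have values of 0 throughout the 17 libraries, and the product of the transgene was not measured in these data. Batch A held 10 libraries (3 TG, 3 wild-type 2-year and 4 wild-type 2-month) and batch B held 7 (3 TG, 2 wild-type 2-year and 2 wild-type 2-month). Library kit and sequencing centre differed between them, and batch B held males only. Females gave 1 TG, 2 wild-type 2-year and 2 wild-type 2-month libraries. Values are the authors' normalized signal, whose total ran from 28077001 to 44543936 per library; sequencing depth is unknown. The labels do not say that each library came from a separate animal, so p-values measure the spread between libraries, which may be technical. The tissue label fitted its markers: Alb, the gene of serum albumin made by hepatocytes, lay between 992461 and 4468552 in every library.

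Elastic fibres form when tropoelastin, the product of Eln, is deposited on microfibrils of fibrillin (Fbn1) with help from accessory proteins and is crosslinked by lysyl oxidases. Basement membranes are sheets of laminin and collagen IV joined by nidogen. In liver such matrix lies mainly around portal tracts, vessels and sinusoids and is made largely by stellate cells, portal fibroblasts and endothelium, not by hepatocytes. miR-29 is a small family of microRNAs known for lowering messages of matrix genes that carry a match to its seed, the stretch of bases near its 5′ end that pairs with the target.

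The mature mouse miR-29 sequences (RefSeq, GRCm38.p6) are shown because every member of the family reads its targets through the same seed. Capitals mark the seed, bases 2 to 8.
miR-29a-3p: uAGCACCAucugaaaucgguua
miR-29b-3p: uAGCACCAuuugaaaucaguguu
miR-29c-3p: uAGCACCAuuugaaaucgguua
A message matches this seed where it reads TGGTGCT on its own strand, 7 letters, and the match is extended where an A follows (TGGTGCTA, 8 letters). A weaker form pairs bases 2 to 7 and has the A (GGTGCTA). These letters were searched on the message strand only. The search covered the longest annotated 3′ UTR of each gene (GENCODE M21, GRCm38, which mm10 names).

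In all, 6 of 10 members held the 7-letter match there, against 13.2% of the 20858 genes with a 3′ UTR of at least 30 bases. Adamts2 held 4 matches, Eln and Lox 3 each, Fbn1 and Loxl2 2 each and Lamc1 1. At least 2 matches occurred in 5 members, against 2.05% of genes. The 8-letter form occurred in 4 members (Eln, Fbn1, Lamc1 and Loxl2), against 2.88% of genes. Sparc held 2 matches of the weaker form alone and Fbln5 held 1, so 8 members carried some form, against 16.1% of genes. Nid1 and Mfap4 held none of the 3 forms in this window. The genes were picked as miR-29 targets, so these shares describe the choice and are not a finding.

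UTR length moves such shares. Among the 3607 genes whose 3′ UTR was within 1.5 times the length of that of Adamts2 (3547 bases), 29.8% held a 7-letter match. The corresponding share was 11.3% of 5549 genes for Eln (1191 bases).

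The sites below carry the seed matches discussed with the results, each 28 bases long and read 5′ to 3′ along the message, with capitals marking the match. The Eln, Fbn1, Lamc1 and Loxl2 sites shown are the 8-letter ones, in which the first lower-case letter after the capitals is the A.
Eln, chr5:134703735-134703762, minus strand: ctcgcgacctcatcaacgtTGGTGCTac
Eln, chr5:134703488-134703515, minus strand: ctccatctccaagggaaatTGGTGCTac
Fbn1, chr2:125301172-125301199, minus strand: taggtttctgttgtctgttTGGTGCTag
Loxl2, chr14:69694729-69694756, plus strand: acaaccccagctcatggaaTGGTGCTac
Loxl2, chr14:69695091-69695118, plus strand: acacagatagcattgtgaaTGGTGCTaa
Lamc1, chr1:153220067-153220094, minus strand: aaactattatctgacacacTGGTGCTat
The 4 Adamts2 matches are all of the 7-letter form.
Adamts2, chr11:50804948-50804975, plus strand: ctggtgcagtttcaaaaccTGGTGCTca
Adamts2, chr11:50806432-50806459, plus strand: catagacaccagataaagaTGGTGCTta
Adamts2, chr11:50806911-50806938, plus strand: gaggcctctccagagttagTGGTGCTca
Adamts2, chr11:50807343-50807370, plus strand: tctgttttaagtatataaaTGGTGCTta
Sparc carried the weaker form at 2 places, 113 and 146 bases into its 3′ UTR of 1088 bases.
Sparc, chr11:55395468-55395495, minus strand: gctgttccgcctggggataaGGTGCTAa
Sparc, chr11:55395435-55395462, minus strand: atttaactgaatacattaacGGTGCTAa

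Eln also held 11 copies of the 7-letter match in its coding sequence of 2580 bases, a number that 5 genes reached. The following stretch of its repeats shows one of them. It occurred at 3 successive places on chromosome 5, of which chr5:134711142-134711169 (minus strand) is the first along the message.
Eln coding repeat: gtgtccccggatttggggcTGGTGCTgg
Fbn1 and Loxl2 held 2 coding matches each and Adamts2 held 1. Across all genes 19.5% held a coding match.

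Levels of the 10 messages spanned a wide range. Per kilobase of the longest transcript, Sparc, a collagen-binding glycoprotein gene, averaged 1147 ± 358 normalized signal in wild-type 2-month livers (SD, n = 6) and lay above the next gene in 6 of 6 libraries. Nid1 followed at 51.3 ± 29.4 and Lamc1 at 41.3 ± 20.4 per kilobase. Then came Mfap4 (29.4 ± 17.9), Eln (28.5 ± 12.2), Fbln5 (28.3 ± 10.5), Loxl2 (25.6 ± 5.4) and Adamts2 (24.6 ± 6.8), whose order was not fixed: each lay above the next in 3 or 4 of 6 libraries only, apart from Adamts2, which exceeded Fbn1 in all 6. Fbn1 (5.74 ± 2.88) and Lox (3.13 ± 2.68) were lowest, and Fbn1 exceeded Lox in 6 of 6 libraries. Nid1 lay above Lamc1, and Lamc1 above Mfap4, in 4 of 6 libraries, so these neighbours did not differ beyond their spread either.

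**Figure D1:**
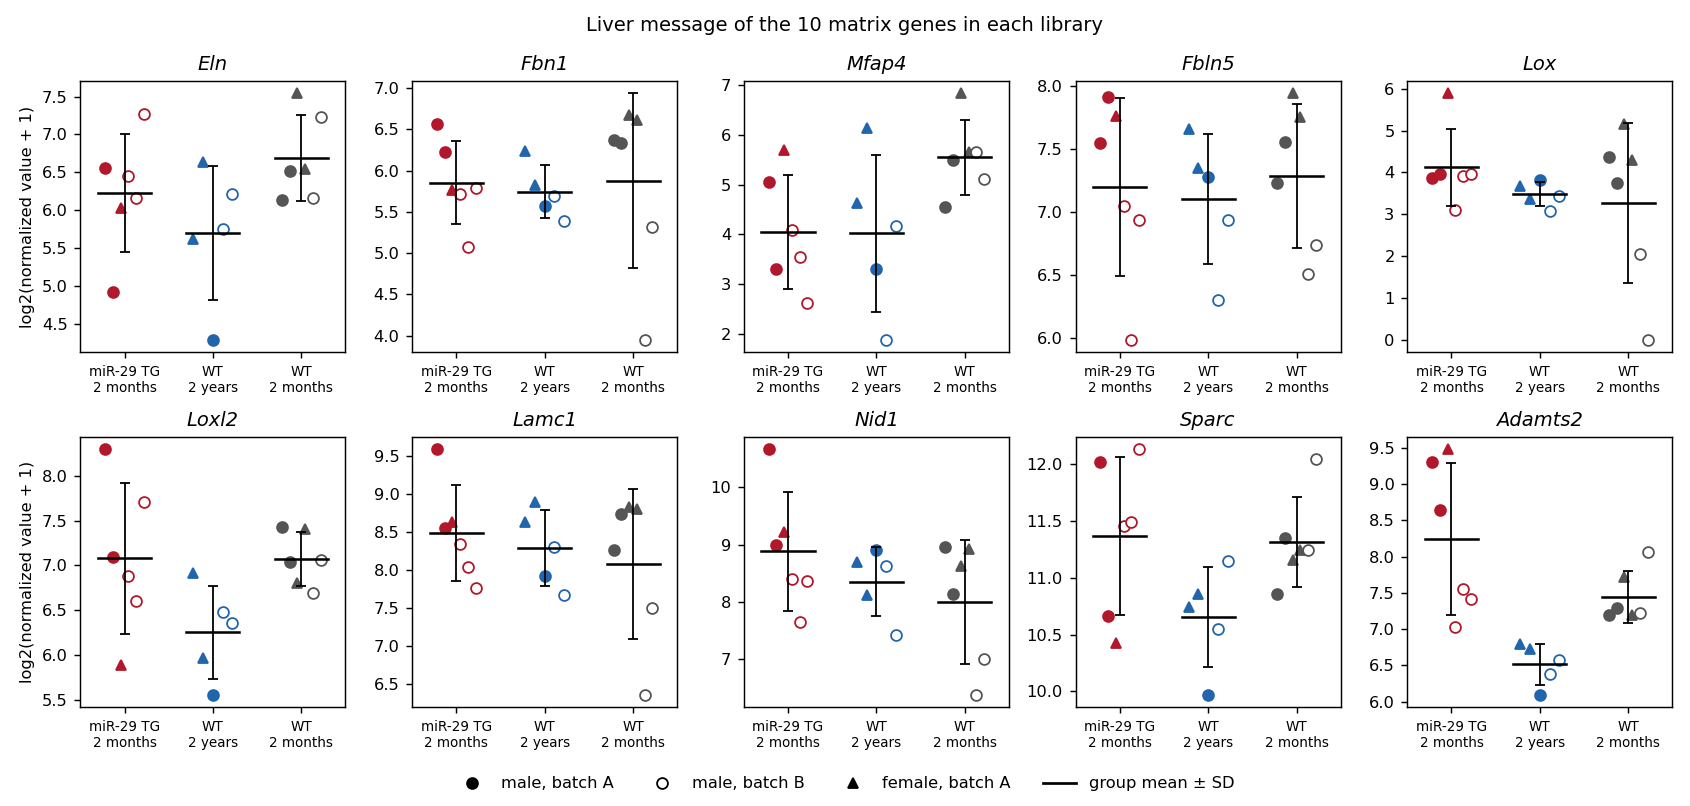
Level of each of the 10 genes in every library, as log2(normalized value + 1), with TG livers left, wild-type 2-year livers in the middle and wild-type 2-month livers right. Lines are group means ± SD (n = 6, 5 and 6), filled symbols are batch A, open symbols batch B and triangles females. All TG livers lie above all 2-year livers for Adamts2, and the groups overlap for the other genes in that comparison.

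The transgene comparison gave no called change among the 10 genes. With limma and Benjamini-Hochberg adjustment over all 14588 genes, 0 of 10 passed an adjusted p under 0.05, where 6.71% of all genes did (421 higher and 558 lower). That split was 513 higher and 401 lower when libraries were scaled to a common total, and 516 higher and 455 lower with a common upper quartile. At an unadjusted p under 0.05 stood 3 members, Nid1 and Adamts2 on the higher side and Mfap4 on the lower, against 21.2% of all genes. The log2 fold changes ran from -1.20 (Mfap4) to 1.17 (Lox), 6 above 0 and 4 below, with a median of 0.12 against 0.01 over all genes. For every member the TG and 2-month libraries overlapped, where 2.95% of all genes had groups that did not. In whole tissue, fewer cells of a type and less RNA per cell cannot be told apart.

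Among the elastic fibre genes, Eln had 29.3, 78.4 and 154 normalized signal in TG livers (lowest, median and highest), against 69.6, 91.7 and 185 in wild-type 2-month livers. The TG livers lay lower on the whole, but 4 of the 6 fell within the range of the wild-type livers. The adjusted log2 difference was -0.45 ± 0.36 (SE), with a 95% interval from -1.22 to 0.32 and an adjusted p of 0.529 (limma). Fbn1, the microfibril backbone, had 32.6, 53.7 and 93.5 in TG livers and 14.5, 80.6 and 101 in wild-type 2-month livers, a log2 difference of 0.14 ± 0.33 with an interval from -0.55 to 0.84.

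Mfap4, whose protein binds elastin and fibrillin, had 5.11, 13.3 and 50.6 in TG livers and 22.6, 46.7 and 113 in wild-type 2-month livers. Of the 6 TG livers, 4 lay below every wild-type 2-month liver. Its log2 difference was -1.20 ± 0.50 (interval -2.25 to -0.14, adjusted p = 0.171, limma). Fbln5, a fibulin that ties elastin to cells, had 62.4, 158 and 240 in TG livers and 90.2, 168 and 245 in wild-type 2-month livers. Its log2 difference of 0.09 ± 0.22 had the narrowest interval of the members, from -0.37 to 0.56.

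The crosslinking enzymes did not pass the test either. Lox, which oxidises lysines of elastin and collagen, had 7.60, 14.3 and 58.5 in TG livers and 0, 15.7 and 35.0 in wild-type 2-month livers. Its log2 difference of 1.17 ± 0.57 (adjusted p = 0.258, limma) had a wide interval, from -0.05 to 2.38, at a level where replicate 6 of the wild-type 2-month group is listed at 0. Without that library the difference was 0.57 ± 0.46 (adjusted p = 0.584, limma). Loxl2, a relative that acts on basement membrane collagen, had 58.4, 126 and 314 in TG livers and 103, 131 and 172 in wild-type 2-month livers. Its values spread more widely among TG livers, and its log2 difference was -0.02 ± 0.35 (interval -0.76 to 0.73).

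Of the basement membrane members, neither passed the test. Nid1, which codes for nidogen-1, the link between laminin and collagen IV, had 201, 423 and 1631 in TG livers and 82.1, 338 and 499 in wild-type 2-month livers. Within each batch, all TG livers exceeded all wild-type 2-month livers: 511, 596 and 1631 against 282 to 499 in batch A, and 201, 329 and 336 against 82.1 and 128 in batch B. Of all genes, 8.52% had every TG liver above every wild-type one within batch A, and 19.8% did so within batch B. The share that did so in both batches was not computed. The 2 wild-type 2-month libraries of batch B had the fewest genes above 0 of all 17 libraries (17413 and 17147). The log2 difference of Nid1 was 1.08 ± 0.34 (interval 0.36 to 1.80, adjusted p = 0.0671, limma). Batch A alone gave 0.93 ± 0.41 and batch B alone 1.45 ± 0.46. In the authors' deposited table the log2 fold change of Nid1 was 1.24 ± 0.33 with an adjusted p of 0.0028, and 14.1% of the 15714 genes there passed. Its call thus depended on the fit: leaving out replicate 4 of the wild-type 2-year group, which does not enter the difference itself, gave an adjusted p of 0.027, and fitting the compared groups alone gave 0.0343 (limma). Both fits also called more of all 14588 genes than the 421 higher and 558 lower of the full fit. The first called 574 higher and 737 lower, and the second 599 higher and 843 lower. Leaving out replicate 1 of the TG group, the liver with 1631, gave 0.84 with an adjusted p of 0.134.

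Lamc1, the gamma chain shared by most laminins, had 216, 348 and 769 in TG livers and 80.8, 365 and 453 in wild-type 2-month livers. Its log2 difference was 0.60 ± 0.29 (interval -0.02 to 1.22, adjusted p = 0.257, limma), and it was 0.32 ± 0.26 without replicate 5 of the wild-type 2-month group, the library with 80.8. The TG livers exceeded both wild-type 2-month livers of batch B and overlapped with those of batch A. Sparc had 1375, 2842 and 4504 in TG livers and 1857, 2425 and 4237 in wild-type 2-month livers. Its log2 difference of -0.03 ± 0.27 (interval -0.61 to 0.54) took either sign across the alternative scalings and subsets.

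**Figure D2:**
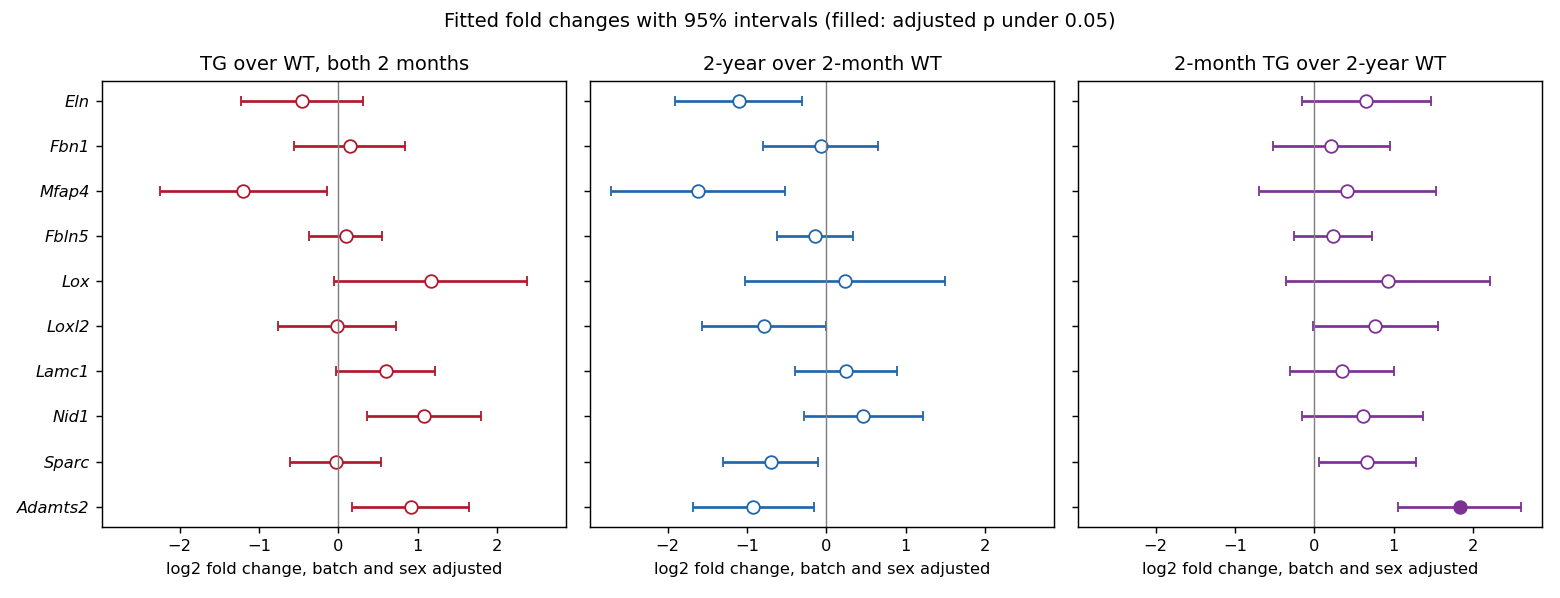
Log2 fold changes of the 10 genes with 95% intervals from limma, adjusted for batch and sex, for TG over wild type at 2 months (left), wild type at 2 years over 2 months (middle) and TG at 2 months over wild type at 2 years (right). The one filled point, Adamts2 in the right panel at 1.83, has an adjusted p under 0.05.

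Adamts2 differed in the transgene effect between batches. The protease it codes for removes the amino-terminal propeptide of fibrillar procollagens. Its batch A signal was 632, 400 and 716 normalized signal in the 3 TG livers, against 145, 156, 210 and 145 in the 4 wild-type 2-month livers. Its batch B signal was 129, 186 and 170 in the 3 TG livers, against 149 and 265 in the 2 wild-type 2-month livers. The TG livers of batch A all lay above the wild-type ones, and those of batch B overlapped with them. The log2 difference was 1.87 ± 0.26 in batch A alone (adjusted p = 0.0051, limma, where 4.24% of all genes were called) and -0.31 ± 0.38 in batch B alone (adjusted p = 0.676, limma). Over all libraries it was 0.91 ± 0.35 (interval 0.17 to 1.65, adjusted p = 0.135, limma). The difference between the batches, tested as an interaction, was 2.18 ± 0.42 (interval 1.28 to 3.08, adjusted p = 0.0413, limma). It was the only member called in that test, in which 0.5% of all genes were.

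This call was close to the threshold. Leaving out any 1 of 10 libraries took its adjusted p past 0.05: TG replicates 3, 4, 5 and 6, wild-type 2-month replicates 1, 2, 3, 4 and 6, and wild-type 2-year replicate 1. Over all 17 such fits the interaction stayed between 1.76 and 2.60, and the adjusted p ran from 0.0313 to 0.118 (limma). Male libraries alone gave 2.05 ± 0.54 with an adjusted p of 0.272, and a common library total gave 2.12 ± 0.43 with an adjusted p of 0.0517 (limma). Lox had the largest interaction of opposite sign, -2.34 ± 0.91 (adjusted p = 0.232, limma). Its wild-type 2-month values in batch B were 3.14 and 0.

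**Figure D3:**
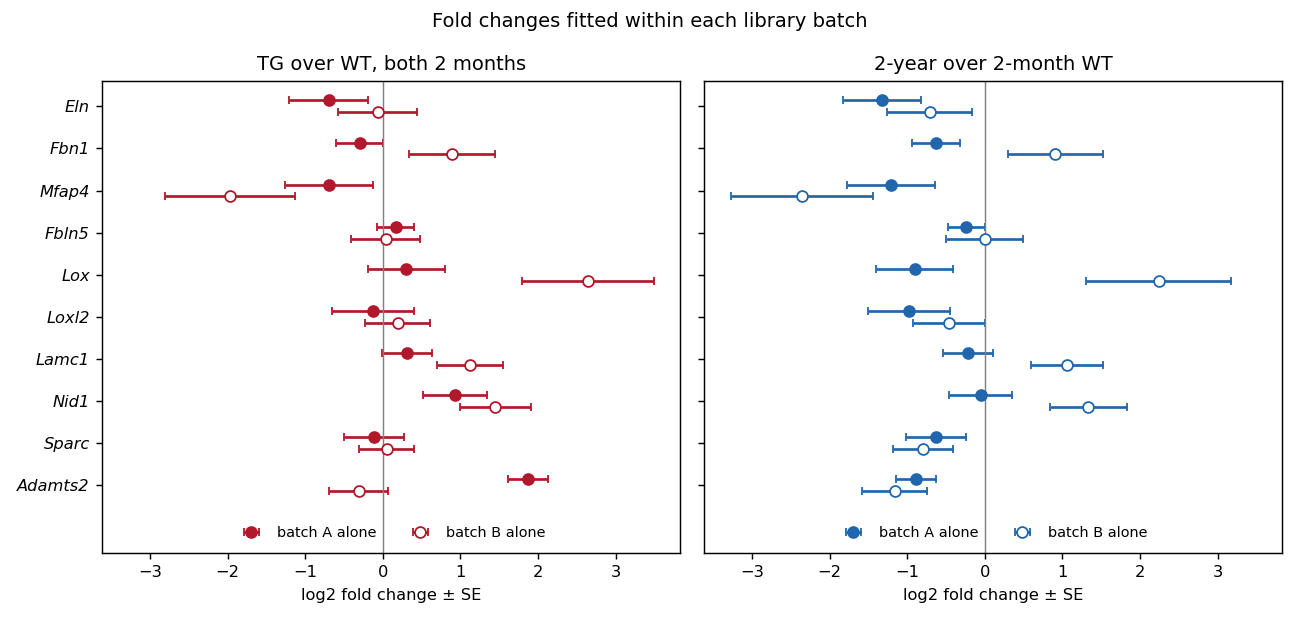
Log2 fold changes ± SE of the 10 genes fitted within batch A alone (filled) and batch B alone (open), for TG over wild type at 2 months (left) and wild type at 2 years over 2 months (right). For Adamts2 the transgene difference is 1.87 in batch A and -0.31 in batch B, while its age difference is -0.89 and -1.16.

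Set against the seed matches above, the transgene differences showed no order. The 4 members without a 7-letter match, Mfap4, Sparc, Fbln5 and Nid1, had log2 differences from -1.20 to 1.08. Adamts2, with 4 matches, stood at 0.91, Lox and Eln, with 3 each, at 1.17 and -0.45, and Loxl2 and Fbn1, with 2 each, at -0.02 and 0.14. Lamc1, with 1 match, stood at 0.60. Across the genes tested, those with 2 or more matches (312 genes) had a median log2 difference of 0.03 and 5.13% were called, 5 higher and 11 lower. The genes with 1 match (1675) had a median of 0.04 with 5.43% called, 49 higher and 42 lower. Those with none (10938) had a median of -0.0008 with 7.16% called, 338 higher and 445 lower.

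**Figure D4:**
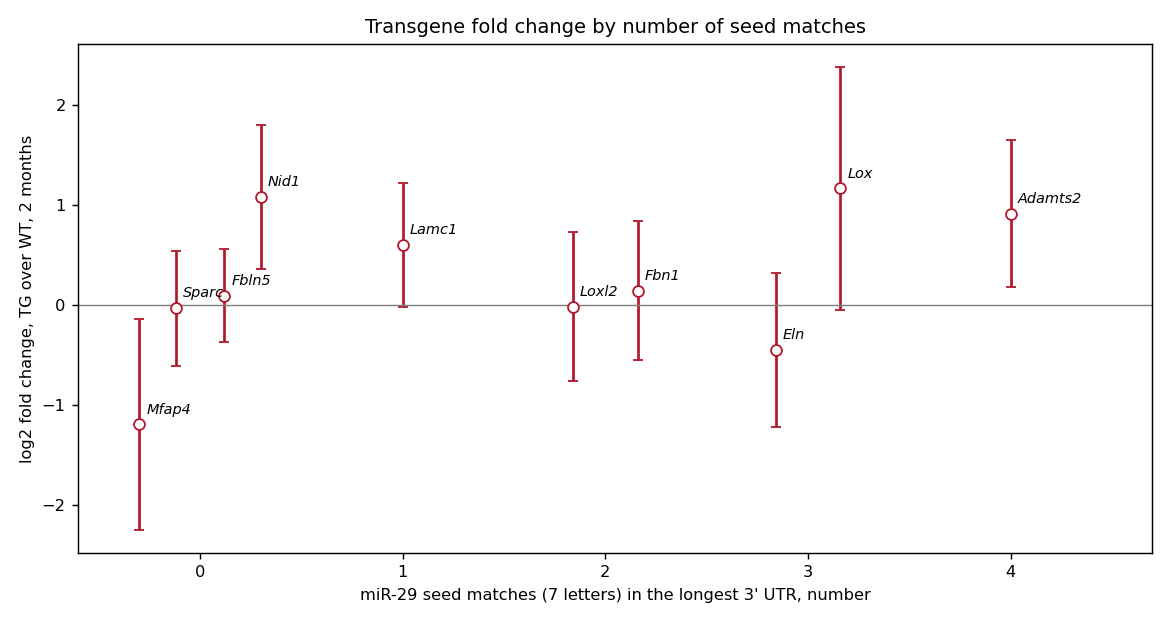
Log2 fold change of TG over wild type at 2 months, with 95% intervals, plotted against the number of 7-letter seed matches in the longest 3′ UTR; points with the same number are set side by side. Genes with 0 matches span -1.20 to 1.08, and Adamts2 with 4 matches lies at 0.91.

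With age, 5 of the 10 genes lay lower in 2-year than in 2-month wild-type livers at an unadjusted p under 0.05, and none lay higher. Of all genes, 4.17% were lower at that p. That share is context only, since the members were chosen with earlier results of these data known and several varied together across the libraries. None of the 10 passed the adjusted threshold, which only 0.144% of all genes did (21 genes), so no member is called changed with age. The median log2 difference of the members was -0.42, against -0.003 over all genes, with 3 above 0 and 7 below.

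Adamts2 was the one member whose groups did not overlap. It had 110, 105, 67.0, 82.7 and 94.0 in the 5 wild-type 2-year livers, against 145, 152 and 265 (lowest, median and highest) in the 2-month livers. Every old liver lay below every young one, which 0.26% of all genes showed in that direction. The log2 difference was -0.92 ± 0.36 (interval -1.69 to -0.15, adjusted p = 0.531, limma), and it was -0.89 ± 0.26 in batch A alone and -1.16 ± 0.41 in batch B alone. In the authors' deposited table Adamts2 had a log2 fold change of -1.03 ± 0.24 with an adjusted p of 0.0032, and 1.77% of the 15814 genes there passed.

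Loxl2, Mfap4, Eln and Sparc also had intervals below 0. Loxl2 had 120, 61.6, 45.9, 88.1 and 80.8 in the 2-year livers, against 103, 131 and 172 in the 2-month livers, and 4 of the 5 old livers lay below all young ones. Its log2 difference was -0.78 ± 0.37 (interval -1.56 to -0.01, adjusted p = 0.567, limma), and it was -0.44 ± 0.37 without replicate 3 of the 2-year group. Mfap4 had 23.7, 69.5, 8.8, 2.68 and 17 in the 2-year livers, against 22.6, 46.7 and 113 in the 2-month livers. Its interval ran from -2.71 to -0.52 (adjusted p = 0.388, limma). The fitted difference of Mfap4 between males and females, -1.53 on the log2 scale, was the largest sex term of the members and about as large as its age difference of -1.61.

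Eln had 48.3, 98.3, 18.6, 52.7 and 73.6 in the 2-year livers, against 69.6, 91.7 and 185 in the 2-month livers, with an interval from -1.91 to -0.31 (adjusted p = 0.435, limma). Sparc had 1708, 1859, 999, 1499 and 2266, against 1857, 2425 and 4237, with an interval from -1.30 to -0.10 (adjusted p = 0.535, limma). Both sets of libraries overlapped between the ages. All of these intervals are for single genes and are not adjusted for the number of genes tested.

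The other members showed no common direction with age. Fbn1 differed by -0.07 ± 0.34 and Fbln5 by -0.14 ± 0.23 on the log2 scale. Lox differed by 0.24 ± 0.60, Lamc1 by 0.25 ± 0.31 and Nid1 by 0.47 ± 0.35. In batch A alone, with 3 old and 4 young libraries, all 10 members had an age difference below 0. The median over all genes in that fit was 0.009. Several members varied together across the libraries, so the 10 signs are not independent. In batch B alone, with 2 libraries a group, 6 lay below 0 and 4 above it (Fbn1, Lox, Lamc1 and Nid1). The test of the age difference between batches called none of them and 0.0206% of all genes. On the side below 0, an unadjusted p under 0.05 was reached by 9.46% of all genes and by 3 members, Lox (-3.15 ± 0.96), Fbn1 (-1.54 ± 0.60) and Lamc1 (-1.28 ± 0.57). Their wild-type 2-month values in batch B were low: 3.14 and 0 for Lox, 14.5 and 39.0 for Fbn1, and 80.8 and 180 for Lamc1. Those 2 libraries had the fewest genes above 0 of all 17 (17413 and 17147).

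Set directly against the old wild-type livers, the young TG livers had higher Adamts2. It had 129, 293 and 716 in TG livers (lowest, median and highest), against 110, 105, 67.0, 82.7 and 94.0 in the 2-year wild-type livers. All 6 TG livers lay above all 5 old ones, which 0.672% of all genes showed in that direction. Adamts2 rose by 1.83 ± 0.37 on the log2 scale (interval 1.05 to 2.61, adjusted p = 0.0135, limma). It was the 1 member of 10 called, where 2.55% of all genes were. TG livers lay above old livers in both batches, by 2.76 ± 0.28 in batch A alone (adjusted p = 0.0013, limma, where 1.46% of all genes were called) and by 0.85 ± 0.38 in batch B alone (adjusted p = 0.456, limma). Leaving out replicate 3 of the wild-type 2-year group took the adjusted p to 0.0507 (limma), with a log2 difference of 1.63. In male libraries only it was 1.61 ± 0.44 with an adjusted p of 0.135 (limma). Some cell markers differed in the same comparison. Of 11 Kupffer cell markers only Marco was called, higher by 3.64 (adjusted p = 0.0003, limma). That list had 5 fitted values above 0 and 6 below, with a median of -0.07. At an unadjusted p under 0.05 it had 1 gene higher and 2 lower. All 14 neutrophil markers tested had fitted values above 0, with a median of 2.02 and Mmp8 called. No gene of the stellate, portal fibroblast, smooth muscle, sinusoidal endothelial, cholangiocyte and hepatocyte lists was called by limma, and at an unadjusted p under 0.05 each had 0 to 3 genes higher and 0 to 3 lower. Their part in the Adamts2 difference was not tested.

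The other 9 members also had fitted values above 0 in this comparison, and none passed the test. Of all genes tested, 7612 lay above 0 and 6976 below. Loxl2 differed by 0.77 ± 0.37 (interval -0.02 to 1.56), Sparc by 0.67 ± 0.29 (interval 0.06 to 1.28, adjusted p = 0.271, limma) and Eln by 0.65 ± 0.38. Nid1 differed by 0.61 ± 0.36, Mfap4 by 0.41 ± 0.53, Lamc1 by 0.35 ± 0.31, Fbln5 by 0.23 ± 0.23, Lox by 0.93 ± 0.61 and Fbn1 by 0.21 ± 0.35. Over all genes the median was 0.02, and the median of the members was 0.63. The 3 comparisons share libraries: the wild-type 2-month group serves the transgene and the age differences, and each difference above is the other 2 combined.

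The members did not move as 1 block across the libraries. With batch and sex removed, the correlation of each gene with the mean of the other 9 over the 17 libraries ran from 0.04 (Mfap4) and 0.09 (Lox) to 0.72 (Sparc and Loxl2). Eln (0.66), Fbn1 (0.62), Lamc1 (0.55), Adamts2 (0.48), Nid1 (0.44) and Fbln5 (0.38) lay between. These are descriptions over shared libraries, with group differences left in. The mean z-score of the 10 genes was highest in TG replicate 1 (1.29) and lowest in wild-type 2-year replicate 3 (-1.20). For Nid1, Lox, Lamc1, Fbn1 and Fbln5 the fitted batch difference was larger in size than both the transgene and the age difference. On the log2 scale, batch B minus batch A was -1.52 for Nid1 and -0.86 for Fbln5, while Eln stood at 0.88, below the size of its age difference.

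The 10 tested genes most like the members' mean over the 17 libraries, by Pearson r after removing batch and sex, were led by Nck2 (0.89), Pak1 (0.87), Adamts13 (0.82) and Evc2 (0.80). Car2 and Col6a1 (0.79 each), Adcy5 (0.77), and Hirip3, Pfkp and Gm10182 (0.76 each) completed them. Col6a1, a chain of microfibrillar collagen VI, averaged 255 normalized signal in TG, 171 in wild-type 2-year and 210 in wild-type 2-month livers. Only Car2 (carbonic anhydrase 2) was called in any of the comparisons: it rose by 1.80 in TG against 2-year wild-type livers (adjusted p = 0.0069, limma).

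Genes that work beside the members gave calls in both directions in the transgene comparison, in which 6.71% of all genes were called. Of 17 tested other elastic fibre and microfibril genes, 1 rose and 1 fell. Emilin2, an elastin interface protein, averaged 150 ± 55.4 in TG livers and 48.5 ± 19.3 in wild-type 2-month livers (log2 1.69, adjusted p = 0.0164, limma). Fbln7, another fibulin, averaged 3.88 ± 3.68 in TG livers and 25 ± 9.61 in wild-type 2-month livers (log2 -2.82, adjusted p = 0.0085, limma). Of 25 other laminins and basement membrane genes only the laminin chain Lama3 was called (log2 -3.67, adjusted p = 0.0011, limma). It was low in TG livers, at 2.98 ± 1.81 (1.01 to 5.96). In wild-type 2-month livers it spread widely, at 69.3 ± 75.6 (11.3 to 166). Of 21 crosslinking and procollagen processing genes, Colgalt1 (0.78) and Tgm2 (0.79) rose.

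The fibrillar and microfibrillar collagens, classical miR-29 targets that include the substrates of Adamts2, had 2 of 12 called, both lower: Col5a3 (log2 -2.14, adjusted p = 0.0045, limma) and Col1a1 (-1.88, adjusted p = 0.020, limma). Among 18 matrix proteases and inhibitors 5 rose and none fell, led by the collagenase Mmp8 (6.03) and the gelatinase Mmp9 (2.995), with Adamts1 (1.22) and Mmp14 (0.94) among them. Mmp8 and Mmp9 are also in the neutrophil list. Among the TGF-beta pathway genes, Ski (0.87) and Skil (1.01), which code for repressors of SMAD signalling, rose. In the age comparison limma called no gene of these 6 lists. The age differences of Ski (1.03, adjusted p = 0.156, limma) and Tgm2 (0.77, adjusted p = 0.330, limma) were about as large as those with the transgene. Skil averaged 475 in wild-type 2-year and 484 in wild-type 2-month livers. At an unadjusted p under 0.05 each list had 0 to 3 genes higher and 0 to 4 lower. The list with 4 lower was the fibrillar and microfibrillar collagens, with 1 fitted value above 0 and 11 below (median -0.52). The matrix proteases and inhibitors went the other way, with 16 above 0 and 2 below (median 0.41). Against the 2-year livers, the TG livers had lower Fbln7 (-3.14), Lama3 (-3.84) and Col15a1 (-1.40) and higher Mmp8 (3.96) among these lists, all called.

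Marker genes of the cell types of the liver were counted beside the members. In the transgene comparison, none of 19 hepatic stellate cell markers was called by limma (2 lay higher at an unadjusted p under 0.05), and their summed signal ran from 10284 to 20940 in TG livers, from 8950 to 14606 in wild-type 2-year livers and from 10396 to 21200 in wild-type 2-month livers. None of 9 smooth muscle markers (0 at an unadjusted p under 0.05) and none of 11 hepatocyte markers (1 higher and 2 lower at that p) was called by limma. The smallest p in these 3 lists belonged to Rgs5 (log2 0.69, adjusted p = 0.0822, limma), Mylk (-0.56, adjusted p = 0.286, limma) and Ttr (-1.13, adjusted p = 0.112, limma). With age the log2 difference was -0.45 for Mylk and -0.81 for Spp1, neither called. Of 11 portal fibroblast and mesothelial markers Pi16 rose (2.43) and Dpt fell (-2.24), of 15 sinusoidal endothelial markers Stab2 rose (1.44) and 13 had fitted values above 0, of 7 cholangiocyte markers Spp1 fell (-1.21) and of 11 Kupffer cell markers Marco rose (3.97). Neutrophil markers moved most: 12 of 14 tested rose, with a median log2 difference of 4.93. Their summed signal ran from 10665 to 131483 in TG livers, from 1421 to 51604 in wild-type 2-year livers and from 361 to 1436 in wild-type 2-month livers, and none of the 15 listed was at 0 in every TG liver. The part of this in the differences of Nid1 and Adamts2 was not tested. With age, limma called 0 genes of all 8 marker lists. At an unadjusted p under 0.05, 8 of 14 neutrophil and 5 of 15 sinusoidal endothelial markers lay higher, as did 665 of all 14588 genes. Portal fibroblast and mesothelial markers had 1 fitted value above 0 and 10 below, with 2 lower at that p. Stellate cell markers had 5 above 0 and 14 below, with 1 lower at that p. Of all genes, 609 were lower at that p.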

How the data were processed

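Polyadenylated liver RNA of 17 mouse libraries was analysed. The tools named in the submitters' processing notes are Salmon 0.6.0, STAR 2.5.3a and DESeq2, with mm10 as the build. The role of each, and the annotation, are not given in the sources used here. Normalized signal, from DESeq2 by its name, was deposited by the authors for every gene in each library. Their 2 deposited tables of comparisons hold log2 fold changes, a test score and p-values, per the file headers. Whole reads could not be recovered from the values (7.99% to 56.2% of low values lay within 0.1 of a whole step), so no count model was run and depth is unknown.

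Fold changes and adjusted p-values were computed with limma 3.58.1 (R 4.3.3, trended eBayes) on log2(value + 1) of the 14588 genes with a mean of at least 10, with group, batch and sex as terms. The scale understates changes of low genes. Tests were two-sided, with Benjamini-Hochberg adjustment over all genes, and a gene is called at an adjusted p under 0.05. Batches were also fitted alone and compared by an interaction term. The code was tested on simulated data. Symbols turned into dates (27) were replaced from the reference names. Levels per kilobase used the longest GENCODE M21 transcript. The members and the 14 other gene lists were chosen with earlier results of these data known. Named genes are the members, up to 4 called genes of each other list, the gene with the smallest p where a list had none (given for the transgene comparison), and the 10 genes most like the members. A result of the TGF-beta list is not reported here. Alternatives changed the pseudocount, filter, scaling, terms, subset or replicate block, or left out each library.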

Additional observations from a re-analysis of the deposited data

Results flagged for a closer look

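Single libraries stood far from the rest of their group for 5 of the 30 combinations of gene and group examined. A rate of 1 in 20 would give 1.5, but that rate assumes independent, evenly spread values. The values used were not log-transformed, mixed batches and sexes, and came from the same libraries for all genes. An excess over 1.5 can therefore not be read from the 5. In the TG group, replicate 1 had 769.2 normalized signal for Lamc1 and 1631 for Nid1, and replicate 3, the female, had 58.47 for Lox. In the wild-type 2-month group, replicate 3 had 113.3 for Mfap4 and replicate 6 had 4237 for Sparc. TG replicate 1 was the highest TG library for 4 of the 10 genes. Adamts2 is listed because its transgene difference was larger in batch A than in batch B by 2.18 on the log2 scale in the interaction test.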

How the results depend on the processing

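Every difference is on the log2 scale, and the cause of the shifts was not tested. The called members moved with the fit. In the transgene comparison 1 member was called, instead of 0, in some settings. It was Nid1 with only the compared groups, with the replicate block and in the authors' deposited table, and Adamts2 in batch A alone. When a library was left out, 0 to 1 were called. Calls over all genes, given below, also moved with these settings. In the age comparison the authors' deposited table called 1. In TG against 2-year livers 0 were called in males, in batch B alone and with the replicate block, and 0 to 1 when a library was left out. In the transgene by batch test 0 were called with a common library total and in males, and 0 to 1 when a library was left out.

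Over all genes, the transgene comparison called 421 without batch and sex terms, 617 in batch A alone, 348 in batch B alone and 2211 in the authors' deposited table. It called 599 higher and 843 lower with only the compared groups, and 653 to 1311 in all when a library was left out. The age comparison called 9 with a mean of at least 50, 5 without batch and sex terms, 10 with only the compared groups, 41 in males, 3 in batch A alone, 0 in batch B alone, 11 with the replicate block and 280 in the authors' deposited table, and 9 to 37 when a library was left out. TG against 2-year livers called 139 without batch and sex terms, 120 with only the compared groups, 175 in males, 212 in batch A alone, 50 in batch B alone and 247 with the replicate block, and 161 to 525 when a library was left out. The transgene by batch test called 147 with no filter, 27 with a mean of at least 50, 34 with a common library total and 2 in males, and 3 to 238 when a library was left out. The age by batch test called 13 with pseudocount 0.5, 0 with pseudocount 5 and in males, 52 with no filter, 34 with a common library total, 26 with a common upper quartile, 23 with no mean-variance trend and 10 with robust eBayes, and 0 to 237 when a library was left out.

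The following differences changed sign; none of them passed the adjusted threshold over all libraries or in the setting named. For the transgene, Sparc was 0.0995 with a common library total, 0.0411 with a common upper quartile, 0.0482 without batch and sex terms, 0.122 in males, 0.0475 in batch B alone and 0.0459 with the replicate block. In the same settings Loxl2 was 0.113, 0.0556, 0.0064, 0.281, 0.190 and 0.0817, and 0.0861 in the authors' deposited table. Fbn1 was -0.0213 without batch and sex terms and -0.299 in batch A alone, Fbln5 -0.0893 without those terms, and Adamts2 -0.311 in batch B alone. For age, Fbn1 was 0.0569 with a common library total, 0.223 in males and 0.909 in batch B alone. Lox was -0.0663 with pseudocount 5, and in batch A alone Lox was -0.905, Lamc1 -0.220, Nid1 -0.0535 and Spp1 0.0266. Mylk was 0.0465 in batch B alone. Fbn1 in TG against 2-year livers was -0.0212 in batch B alone. In the transgene by batch test, Sparc was 0.187 and Loxl2 0.270 in males, and Fbln5 -0.0330 with a common upper quartile. In the age by batch test, Sparc was -0.322 with a common library total, -0.0767 with a common upper quartile and -0.342 in males, and Adamts2 -0.207 with a common library total.

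Leaving out 1 library at a time gave transgene differences of -0.203 to 0.342 for Fbn1, -0.260 to 0.205 for Sparc and -0.280 to 0.318 for Loxl2, and age differences of -0.387 to 0.126 for Fbn1, -0.0024 to 0.497 for Lamc1 and -0.309 to 0.517 for Lox. Mfap4 in TG against 2-year livers ran from -0.011 to 0.713. The transgene by batch values ran from -0.656 to 0.336 for Sparc, -0.870 to 0.474 for Loxl2 and -0.206 to 0.323 for Fbln5. The age by batch values ran from -0.237 to 0.602 for Sparc, -0.954 to 0.129 for Loxl2, -0.549 to 0.0842 for Fbln5 and -0.138 to 0.694 for Adamts2.

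A common library total shifted the median of all genes by 0.13 in both the transgene and the age comparison. The replicate numbers share no stated source and same-numbered libraries did not all deviate together (correlations from -0.32 to 0.38), so the replicate block is an alternative only. With the block the transgene comparison called 796 genes.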
